A study of Mus musculus with 6 samples.

Results

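The transcription factor p53 and 9 genes it is known to activate were followed in the mRNA of bEnd.3 cells, an immortalised endothelial line from mouse brain, with and without a knockdown of Npc1. The set was fixed by gene symbol as Trp53, which encodes p53, and its targets Mdm2, Cdkn1a, Zmat3, Fas, Ccng1, Bbc3, Bax, Sesn1 and Phlda3. All 10 were among the 15917 genes of the deposited table. Values were available for 6 libraries. Control replicates 1, 2 and 3 carried a control short hairpin RNA, and knockdown replicates 4, 5 and 6 carried one against Npc1, whose product exports cholesterol from late endosomes and lysosomes. No other agent, time or allele is named in the labels, and a separate tag there calls the control samples WT although their titles name a control hairpin. Whether the replicates were separate cultures, clones or pools, and whether replicates 4, 5 and 6 shared 1 hairpin sequence, is not stated, so the spread behind the p-values below may be technical.

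p53 is made continuously and is removed by the ubiquitin ligase MDM2, so that its activity is set mainly by protein stability and modification. When DNA damage or another stress relieves MDM2, p53 binds paired copies of a short DNA motif and raises genes that halt the cell cycle, repair DNA, adjust metabolism or start apoptosis. MDM2 is itself such a target, which closes a negative feedback loop. The mRNA of Trp53 can therefore stay level while its targets move, and the targets are read as a group.

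Levels were given as FPKM (fragments mapped, scaled to 1000000 per library and to the kilobases of each transcript), so that genes can be compared with each other. Differences between groups are given on the scale of log2(FPKM + 1), tested with limma over 10400 genes, those averaging 1 FPKM or more, and adjusted by Benjamini and Hochberg over all of them, with a threshold of 0.05. "Rose" and "fell" refer to this test. Npc1 stood at 6.31, 6.63 and 7.27 FPKM in the controls against 0.45, 1.20 and 0.97 in knockdown libraries 4, 5 and 6, a ratio of the means of 0.130, with no overlap (exact two-sided permutation p = 0.10, the smallest that 3 against 3 samples allow). All 10 endothelial markers were expressed, with a summed level of 1840 to 1850 FPKM in the controls and 1710 to 1810 in the knockdown. The summed level of mural markers, 7 of 8 in the table, was 2.29 to 2.48 FPKM in the controls and 7.10 to 12.5 in the knockdown, most of it Acta2. Acta2 and Pdgfrb (0.52 to 0.66 FPKM in the controls, 0.68 to 0.92 in the knockdown) were the 2 with all knockdown libraries above all controls, and Myh11 and Cspg4 stayed at or below 0.05. The sums of fibroblast (5 of 6 in the table), leukocyte (3 of 6), glial and neuronal (3 of 6) and epithelial markers (4 of 4) were 1.06 to 1.37, 0.490 to 0.840, 0.0200 to 0.0400 and 0.580 to 1.04 FPKM in the controls. In the knockdown they were 0.560 to 0.870, 0.240 to 0.290, 0.0200 to 0.0600 and 0.780 to 1.39 FPKM. Their part in the results below was not tested. Knockdown library 4 stood apart. Its median absolute log2 deviation from the other libraries of its group was 0.225, against 0.167 and 0.0842 for knockdown libraries 5 and 6 and 0.0455 to 0.0792 for the controls, and across genes its difference from libraries 5 and 6 followed the GC content of the transcript (Pearson r = 0.705 over 10247 genes, which are not independent replicates). Other libraries also showed such a trend. Against the others of its group r was -0.406 for control 1, 0.410 for control 2 and 0.0292 for control 3. For knockdown library 5 minus library 6 it was -0.384, so leaving out library 4 does not remove the trend. Against the control mean r was 0.635, 0.102 and 0.310 for knockdown libraries 4, 5 and 6. The trend thus also runs along the tested comparison. Results that rest on library 4 are given with and without it.

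In the knockdown 3 of the 10 genes rose, 0 fell and 7 did not pass; with an unadjusted limma p under 0.05, 5 were higher and 0 lower, against 21.9% and 12.8% of all tested genes. Those that rose were Zmat3, Fas and Bax, each by about the same modest amount, with ratios of the group means of 1.34, 1.33 and 1.28. Over all tested genes 12.0% rose and 5.89% fell. The log2 difference was above 0 for 9 of the 10, against 54.2% of all tested genes, with a median of 0.28 against 0.03. After a correction for GC content 8 of the 10 were above 0, against 50.4% of all genes, and their median was 0.15 against 0.0015. All 3 knockdown libraries lay above all 3 controls for 5 of the 10 genes, Zmat3, Fas, Bax, Cdkn1a and Sesn1, and below them for 0. Over all tested genes these shares were 27.4% and 16.1%. Among all genes 1251 rose and 613 fell, a split that was 846 and 738 with median scaling, 965 and 755 with the trimmed mean of M values and 1378 and 1209 after a correction for GC content. As bulk RNA was measured, a change in all cells and a change in some of them cannot be told apart. The number of members that rose was 6 without knockdown replicate 4, 4 without knockdown replicate 5, and 1, Zmat3, without control replicate 1, 2 or 3 or knockdown replicate 6. The shares of all genes that rose in those fits were 18.3%, 14.9%, 3.22%, 4.11%, 2.98% and 4.52%, in the same order, and the shares that fell were 10.2%, 10.4%, 1.63%, 2.12%, 1.53% and 2.42%.

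The count of members that rose also moved with the processing, as did the background. It was 1 without a filter on low values (6.73% of all genes rose and 3.69% fell), 1 with median scaling (8.13% and 7.10%), 2 with the trimmed mean of M values (9.28% and 7.26%), 3 with TPM (13.5% and 4.16%), 3 with the GC correction (13.4% and 11.8%), 5 with quantile normalization (10.9% and 7.61%) and 8 with weights for the libraries (28.5% and 19.3%). The 3 with TPM were Bax, Cdkn1a and Zmat3, and the 3 with the GC correction were Cdkn1a, Fas and Zmat3. With the GC correction and without knockdown replicate 4 the count was 4 (16.8% and 16.2%). None of the 10 reached a fold of 2. With a fold of 2 required beside an adjusted p under 0.05, 0.452% of all genes rose and 0.519% fell.

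**Figure D1:**
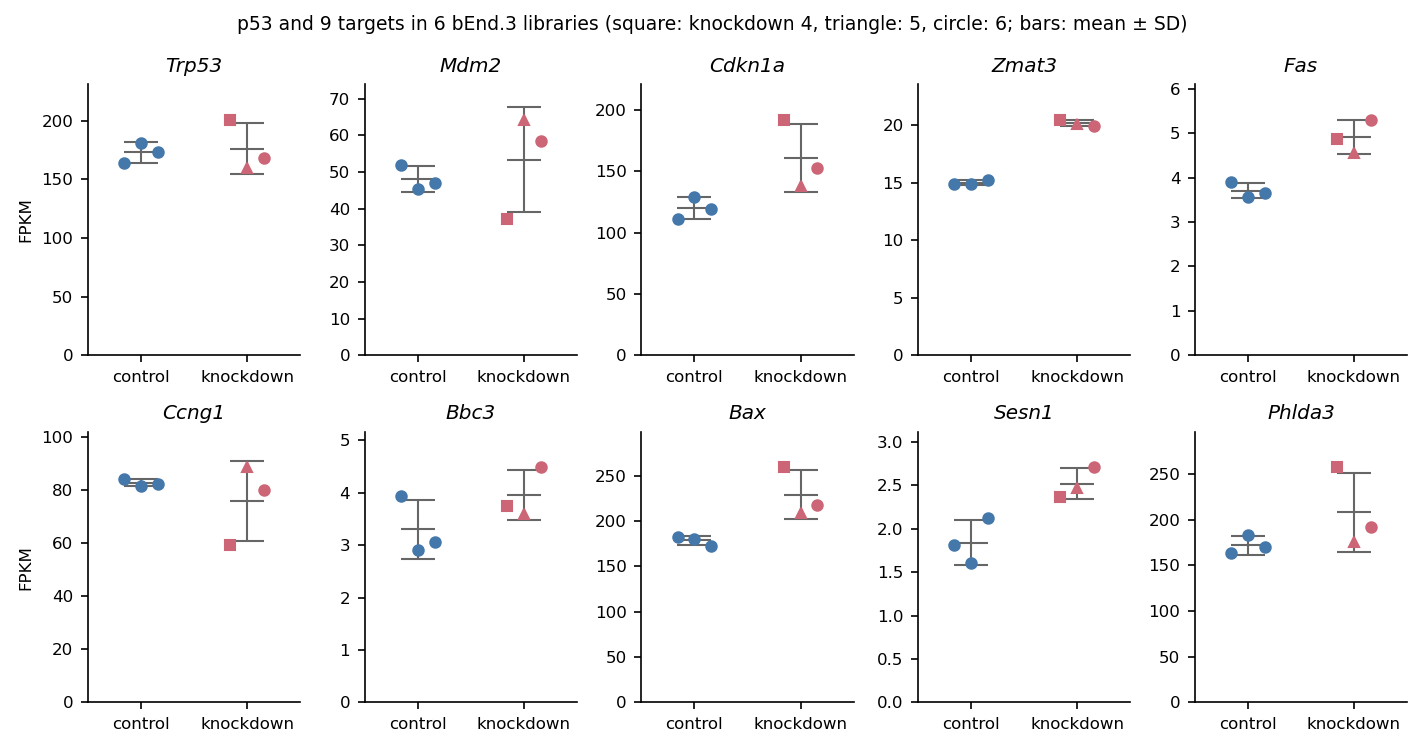
FPKM of each of the 10 genes (linear axes from 0) in 3 control and 3 knockdown libraries, with the mean and SD of each group. The knockdown values of Zmat3 lie between 19.93 and 20.45, clear of controls at 14.83 to 15.25, whereas the square for knockdown library 4 sits apart from the other knockdown libraries for Mdm2, Ccng1, Cdkn1a and Phlda3.

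In the controls the 10 genes spanned from 1.84 to 179 FPKM. Bax (179 ± 5.00), Trp53 (173 ± 8.87) and Phlda3 (172 ± 10.3 FPKM, SD, n = 3) led, and their control values overlapped, so their order is not settled. Each was above 96.3% or 96.4% of all genes in the table. Cdkn1a followed at 120 ± 9.09, Ccng1 at 82.8 ± 1.36, Mdm2 at 48.1 ± 3.48 and Zmat3 at 15.0 ± 0.223 FPKM, with no overlap between neighbours. Fas (3.70 ± 0.171) and Bbc3 (3.30 ± 0.556 FPKM) overlapped, and Sesn1 was lowest at 1.84 ± 0.262 FPKM. The coefficient of variation of the controls ran from 1.49% for Zmat3 to 16.8% for Bbc3. In the knockdown it was 1.32% for Zmat3 and 26.9% for Mdm2, the widest of the 10.

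Trp53 (gene 22059), the factor itself, held 163.47, 181.19 and 173.09 FPKM in the 3 controls, in order, against 200.62, 159.35 and 168.36 in knockdown libraries 4, 5 and 6. The groups overlapped, and library 4 was the highest and library 5 the lowest of all 6. On the log2 scale the knockdown differed by 0.02 (SE 0.10, 95% interval -0.21 to 0.25, limma adjusted p = 0.878). It was -0.07 without knockdown replicate 4 (adjusted p = 0.373), and with the GC correction added it was -0.15 and passed as lower (adjusted p = 0.0383, the alternatives spanning 0.0383 to 0.991). Of the other genes of its family, Trp63 did not exceed 0.04 FPKM in any library and Trp73 was not analysed here.

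The feedback genes Mdm2 and Ccng1 did not pass, and for each the knockdown libraries lay on both sides of the controls. Mdm2 (gene 17246) held 51.94, 45.22 and 47.02 FPKM in the controls against 37.06, 64.22 and 58.56 in knockdown libraries 4, 5 and 6. Library 4 was thus below every control and libraries 5 and 6 above every control. Over all 6 libraries the log2 difference was 0.11 (SE 0.19, 95% interval -0.35 to 0.57, limma adjusted p = 0.703). Without knockdown replicate 4 it was 0.35 and Mdm2 rose (adjusted p = 0.00917, the alternatives spanning 0.00209 to 0.949), and without knockdown replicate 5 it was -0.04. Ccng1 (gene 12450), which encodes cyclin G1, a partner of a phosphatase that acts on MDM2, held 84.29, 81.64 and 82.46 FPKM in the controls and 59.29, 88.77 and 80.01 in the knockdown. Libraries 4 and 6 were below the controls and library 5 above them. Over all libraries its log2 difference was -0.14 (SE 0.14, 95% interval -0.47 to 0.19, adjusted p = 0.495), and 0.03 without knockdown replicate 4 (adjusted p = 0.764).

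Of the genes that act on the cell cycle, Zmat3 rose and Cdkn1a did not pass. Zmat3 (gene 22401) encodes a zinc finger protein that binds RNA and acts in p53-dependent growth control. It held 14.91, 14.83 and 15.25 FPKM in the controls and 20.45, 20.09 and 19.93 in the knockdown, so that all 3 knockdown libraries, number 4 included, lay close together and above every control. The log2 difference was 0.40 (SE 0.06, 95% interval 0.27 to 0.54, limma adjusted p = 0.00610). It passed in 18 of 19 alternatives, all but the one that required a fold of 2, with log2 differences of 0.36 to 0.42 and adjusted p of 8.61e-05 to 0.0463. In the authors' deposited table Zmat3 had a log2 ratio of 0.41 and q = 4.55e-05, and it was the 1 gene of the 10 with q under 0.05 there; 6.48% of all genes in the authors' deposited table were higher and 5.60% lower at that q.

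Cdkn1a (gene 12575) encodes p21, the inhibitor of cyclin-dependent kinases through which p53 halts cells before DNA replication. It held 110.79, 128.93 and 118.92 FPKM in the controls and 192.06, 137.89 and 152.40 in the knockdown. Every knockdown library was above every control, with library 4 far above the others. The ratio of means was 1.34, and the log2 difference of 0.41 (SE 0.13, 95% interval 0.11 to 0.71) did not pass (limma adjusted p = 0.0660). It passed without knockdown replicate 4 (log2 0.28, adjusted p = 0.0257), without knockdown replicate 5 (log2 0.52, adjusted p = 0.0262) and after the GC correction (log2 0.28, adjusted p = 0.0437), the alternatives spanning 0.00151 to 0.219. The gene did not pass without control replicate 1, 2 or 3 (limma adjusted p = 0.219, 0.119 and 0.186) or knockdown replicate 6 (0.136). Nor did it pass with median scaling (0.126), the trimmed mean of M values (0.0962) or no filter on low values (0.105). Apart from the fold of 2, it passed in 7 of 18 alternatives. The authors' deposited table gives Cdkn1a a log2 ratio of 0.41 and q = 0.0629. Exons of Cdkn1a overlap those of another annotated gene on the opposite strand in GENCODE M21. As strandedness is not given, reads of that gene cannot be told apart from those of Cdkn1a here.

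The upstream promoter of Cdkn1a is shown because it was the single promoter window of the set with a paired p53 motif. It is chr17:29090729-29091028, plus strand, of GRCm38.p6, from RefSeq, and runs from 250 bases before the upstream start of the gene to 50 bases after it. Capitals mark matches to the p53 decamer, to a pair of decamers or to ACATGT.
Cdkn1a: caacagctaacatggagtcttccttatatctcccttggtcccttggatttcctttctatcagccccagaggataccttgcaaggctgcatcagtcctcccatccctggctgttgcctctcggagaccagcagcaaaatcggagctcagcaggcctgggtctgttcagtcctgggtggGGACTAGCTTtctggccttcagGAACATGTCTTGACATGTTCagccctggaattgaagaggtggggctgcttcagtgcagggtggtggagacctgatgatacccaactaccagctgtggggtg
The stretch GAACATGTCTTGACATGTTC (chr17:29090928-29090947) is a pair of decamers with 0 bases between them and 1 mismatch to the motif, and it ends 2822 bases before the downstream start of Cdkn1a. The decamer GGACTAGCTT (chr17:29090906-29090915) lies 12 bases before it and forms another pair with GAACATGTCT, with 0 mismatches. The deposited values are per gene, so the upstream and downstream starts of Cdkn1a cannot be told apart in them.

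The 13 promoter windows in RefSeq for 9 of the 10 genes, all of 300 bases, were searched on both strands for 3 motifs; Zmat3 had no entry in the table. A p53 decamer with no mismatch was present in 6 of the 13 windows and in 8.36% of all 32851 windows. A pair of decamers 0 to 13 bases apart with at most 1 mismatch was present in 1 of the 13 and in 0.417% of all windows. The palindrome ACATGT, which overlaps the decamer, was present in 2 of the 13 and in 5.28% of all. Besides Cdkn1a, decamers were found in Trp53 (GGACTTGCCC, chr11:69580284-69580293), Mdm2 (GAACTTGCCT, chr10:117710935-117710944), Ccng1 (GGGCAAGCCT, chr11:40755462-40755471), Bax and Sesn1 (AAGCTTGTTT, chr10:41887266-41887275). The 3 windows of Bbc3 and the windows of Fas and Phlda3 held no decamer, and Phlda3 held 1 ACATGT. The genes were chosen as known targets and the motifs were chosen with these sequences in view, and a match describes letters in the window, not binding.

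Among the apoptosis genes Bax and Fas rose and Bbc3 did not pass. Bax (gene 12028) encodes the protein that opens the outer mitochondrial membrane. It held 182.60, 180.15 and 172.97 FPKM in the controls and 259.63, 208.56 and 217.89 in the knockdown. The groups did not overlap, and library 4 was again the highest. The log2 difference was 0.35 (SE 0.09, 95% interval 0.13 to 0.56, limma adjusted p = 0.0414). It remained past the threshold without knockdown replicate 4 (log2 0.25, adjusted p = 0.00740) and without knockdown replicate 5 (0.0239). The call was lost without control replicate 1, 2 or 3 (adjusted p = 0.128, 0.122 and 0.158) or knockdown replicate 6 (0.0973), and after the GC correction, where the difference was 0.13 (adjusted p = 0.0935), the alternatives spanning 5.15e-04 to 0.158. The call was also lost with median scaling (limma adjusted p = 0.101), the trimmed mean of M values (0.0662) and no filter on low values (0.0628). Exons of Bax overlap those of a predicted gene on the same strand in GENCODE M21, whose reads cannot be told apart from those of Bax here. The authors' deposited table gives Bax a log2 ratio of 0.33 and q = 0.0571.

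Fas (gene 14102) encodes the receptor for Fas ligand. It held 3.89, 3.56 and 3.65 FPKM in the controls and 4.87, 4.55 and 5.30 in the knockdown. All knockdown values were above all control values, and library 4 lay between the other knockdown libraries. The log2 difference was 0.33 (SE 0.08, 95% interval 0.14 to 0.52, limma adjusted p = 0.0347), and 0.48 after the GC correction (adjusted p = 0.0248). The call was lost without control replicate 1, 2 or 3 (adjusted p = 0.102, 0.127 and 0.138) or knockdown replicate 6 (0.123), the alternatives spanning 7.52e-04 to 0.138. The call was also lost with TPM (limma adjusted p = 0.0638), median scaling (0.0519) and no filter on low values (0.0614). In the authors' deposited table the q of Fas was 0.163.

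The promoters of both genes that rose and have a RefSeq window are shown for comparison with that of Cdkn1a. Capitals again mark the decamer.
Bax (chr7:45466849-45467148, minus strand): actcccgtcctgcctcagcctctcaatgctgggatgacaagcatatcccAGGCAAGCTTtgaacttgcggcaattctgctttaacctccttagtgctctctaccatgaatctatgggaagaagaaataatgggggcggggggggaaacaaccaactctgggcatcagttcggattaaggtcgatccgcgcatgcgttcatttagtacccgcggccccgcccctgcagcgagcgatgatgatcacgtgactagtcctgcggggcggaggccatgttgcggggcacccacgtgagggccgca
Fas (chr19:34290409-34290708, plus strand): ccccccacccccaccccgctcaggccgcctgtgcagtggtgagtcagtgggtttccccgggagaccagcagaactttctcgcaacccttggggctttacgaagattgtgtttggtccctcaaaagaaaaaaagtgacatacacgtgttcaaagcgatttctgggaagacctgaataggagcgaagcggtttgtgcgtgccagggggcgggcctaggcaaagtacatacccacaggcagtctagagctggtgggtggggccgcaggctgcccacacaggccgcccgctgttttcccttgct
The decamer of Bax, AGGCAAGCTT (chr7:45467090-45467099), begins 201 bases before the start of the gene. No decamer was found in the window of Fas. GC made up 57.3% of the window of Bax and 59.0% of that of Fas.

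Bbc3 (gene 170770) encodes PUMA, a BH3-only protein that neutralises the guards of the BCL2 family. It held 3.94, 2.91 and 3.06 FPKM in the controls and 3.75, 3.60 and 4.49 in the knockdown. The groups overlapped, since control replicate 1 was above knockdown libraries 4 and 5. This left a log2 difference of 0.20 (SE 0.12, 95% interval -0.08 to 0.49, limma adjusted p = 0.266).

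The last pair comprises a metabolic regulator and an inhibitor of growth signalling. Sesn1 (gene 140742) encodes sestrin 1, which restrains the kinase complex mTORC1. It held 1.81, 1.60 and 2.12 FPKM in the controls and 2.37, 2.47 and 2.71 in the knockdown, without overlap and with library 4 the lowest of its group. The log2 difference of 0.31 (SE 0.10, 95% interval 0.08 to 0.54) did not pass (limma adjusted p = 0.0679), and passed without knockdown replicate 4 (0.34, adjusted p = 0.0430, the alternatives spanning 0.0103 to 0.201). Phlda3 (gene 27280) encodes a protein that competes with the kinase AKT for membrane lipids. It held 163.18, 183.44 and 169.92 FPKM in the controls and 257.71, 175.90 and 191.81 in the knockdown. Library 5 lay within the range of the controls and library 4 far above it. With 6 libraries its log2 difference was 0.26 (SE 0.14, 95% interval -0.08 to 0.59, adjusted p = 0.239), and 0.09 without knockdown replicate 4 (adjusted p = 0.310).

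**Figure D2:**
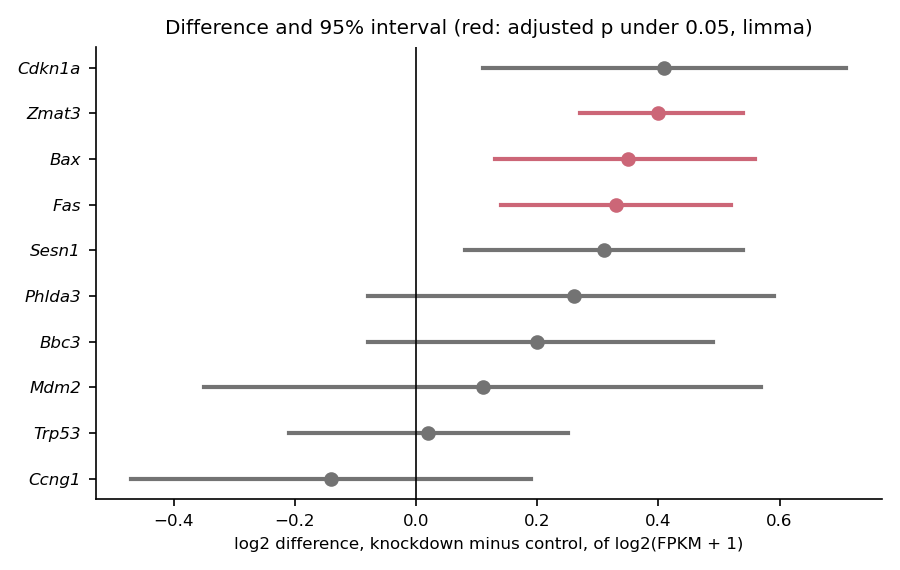
Log2 difference of knockdown minus control, with its 95% interval from limma, for the 10 genes in order of size. The intervals of Zmat3 (0.27 to 0.54), Fas and Bax, in red, passed after adjustment; those of Cdkn1a and Sesn1 also lie above 0 but did not pass, and that of Mdm2 is the widest, from -0.35 to 0.57.

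The genes divided by how library 4 stood to libraries 5 and 6. On the log2 scale library 4 was lower by 0.71 for Mdm2 (written as a difference, -0.71) and by 0.50 for Ccng1 (-0.50). It was higher for Phlda3 (0.49), Cdkn1a (0.40), Trp53 (0.29) and Bax (0.28). For Zmat3 (0.03), Fas (-0.01), Bbc3 (-0.08) and Sesn1 (-0.09) it differed little. The transcripts of Ccng1 and Mdm2 have a GC content of 40.8% and 46.2%, below the 49.9% median of tested genes, and those of Trp53, Cdkn1a, Phlda3 and Bax lie between 54.0% and 63.5%. Bbc3, with the highest GC content of the set at 65.2%, and Fas, at 43.4%, showed no such shift. The part of GC content in the values of single genes was not tested beyond the corrected fit, in which Zmat3, Fas and Cdkn1a rose; 13.4% of genes rose and 11.8% fell in that fit.

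**Figure D3:**
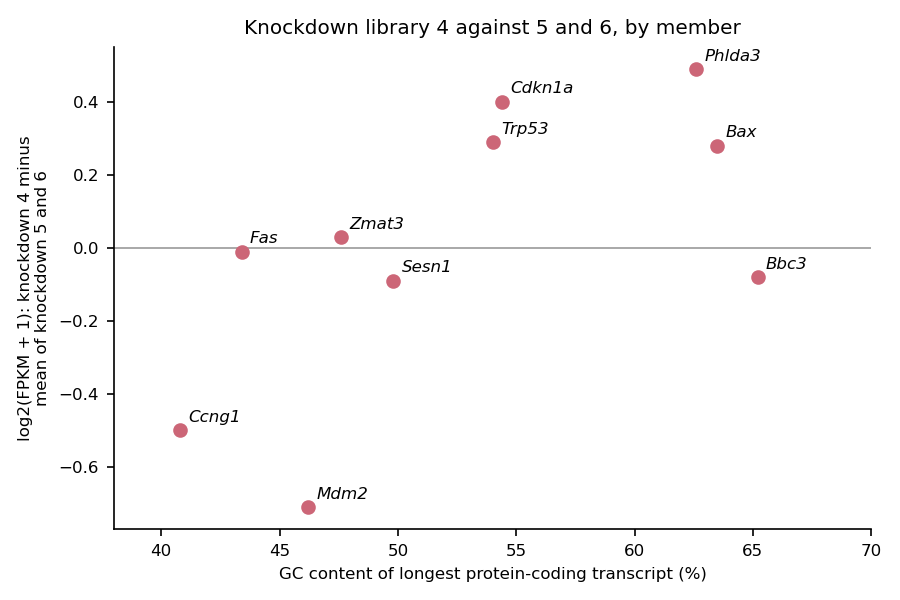
Difference in log2(FPKM + 1) between knockdown library 4 and the mean of knockdown libraries 5 and 6 (vertical axis), against the GC content of the longest protein-coding transcript in percent (horizontal axis), 1 point per gene. Mdm2 (-0.71) and Ccng1 (-0.50) lie lowest and Phlda3 (0.49) highest, while Zmat3 and Fas sit at 0.03 and -0.01.

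**Figure D4:**
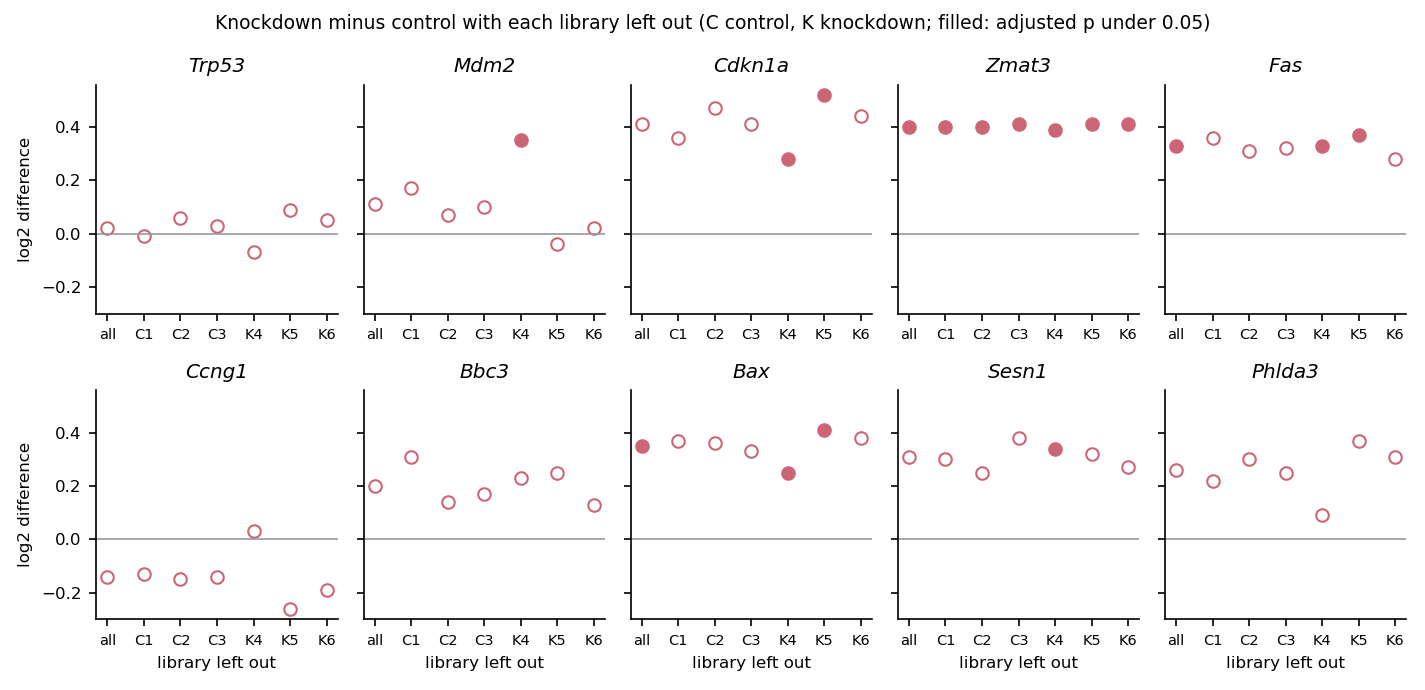
Log2 difference of knockdown minus control for each gene with all 6 libraries and with each library left out in turn; filled points have an adjusted p under 0.05. Zmat3 stays at 0.39 to 0.41 and past the threshold throughout, whereas Mdm2 moves between -0.04 and 0.35.

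The pattern of Zmat3 over the 6 libraries was most like those of Mmp11, a matrix metalloproteinase gene, Selp, the P-selectin gene, and Gab2, a signalling adaptor gene. Their Euclidean distances to Zmat3, taken over the deviations from the control mean, were 0.045, 0.051 and 0.052 on the log2 scale. Their log2 differences were 0.41, 0.38 and 0.43. As these genes were picked for likeness to Zmat3 in these same values, their differences and calls are not separate results. Selp and Gab2 passed with each library left out, and Mmp11 did not pass without control replicate 1, 2 or 3 (adjusted p = 0.0589, 0.0560 and 0.0537) or knockdown replicate 6 (0.0509).

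Beyond these 10 genes, 46 further targets of p53 were listed by role, of which 44 were in the table and 40 were tested. Of these 13 rose and 2 fell, against 12.0% and 5.89% of all genes, with a median log2 difference of 0.22. Arrest genes held the most, with 5 of 10 tested rising and 0 falling. They were Gdf15, Plk2, Plk3, Gadd45a and Psrc1. Gdf15, a secreted stress cytokine that is also a target of ATF4, had 12.43, 12.92 and 12.66 FPKM in the controls and 46.98, 37.86 and 37.08 in the knockdown, a log2 difference of 1.60 (SE 0.10, limma adjusted p = 3.02e-04). It was the 1 target that passed a fold of 2. Plk2, a stress-responsive kinase gene, held 60.03 to 62.91 FPKM in the controls and 78.32 to 82.91 in the knockdown, without overlap (log2 0.38, SE 0.06, adjusted p = 0.00679).

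Of 9 tested targets in apoptosis 2 rose, Ei24 and Pidd1, and 1 fell, Apaf1, whose product builds the apoptosome. Of 6 in DNA repair 2 rose, Xpc and Polh, and 0 fell. Polh, which encodes a polymerase that copies past damaged bases, held 15.86, 15.40 and 15.07 FPKM in the controls and 20.48, 21.03 and 20.97 in the knockdown. Its log2 difference was 0.41 (SE 0.06, limma adjusted p = 0.00629), and the call was lost without control replicate 3 (adjusted p = 0.0510, the alternatives spanning 5.39e-05 to 0.0510). Of 9 in metabolism and redox balance 4 rose, Sesn2, Abhd4, Tigar and Dcxr, and 0 fell, and of 6 in signalling 0 rose and Slc19a2 fell. For all tested genes the shares were 12.0% and 5.89%, and each role holds few genes. Rprm, Pmaip1, Dram1 and Pltp were too low to be tested. Leaving out control replicate 1, 2 or 3 left 5, 5 and 4 that rose, and leaving out knockdown replicate 6 left 8; those that fell were then 0, 1, 0 and 0. Over all genes the shares that rose in these fits were 3.22%, 4.11%, 2.98% and 4.52%. The shares that fell were 1.63%, 2.12%, 1.53% and 2.42%. Gdf15, Plk2 and Plk3 rose in each of these fits.

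**Figure D5:**
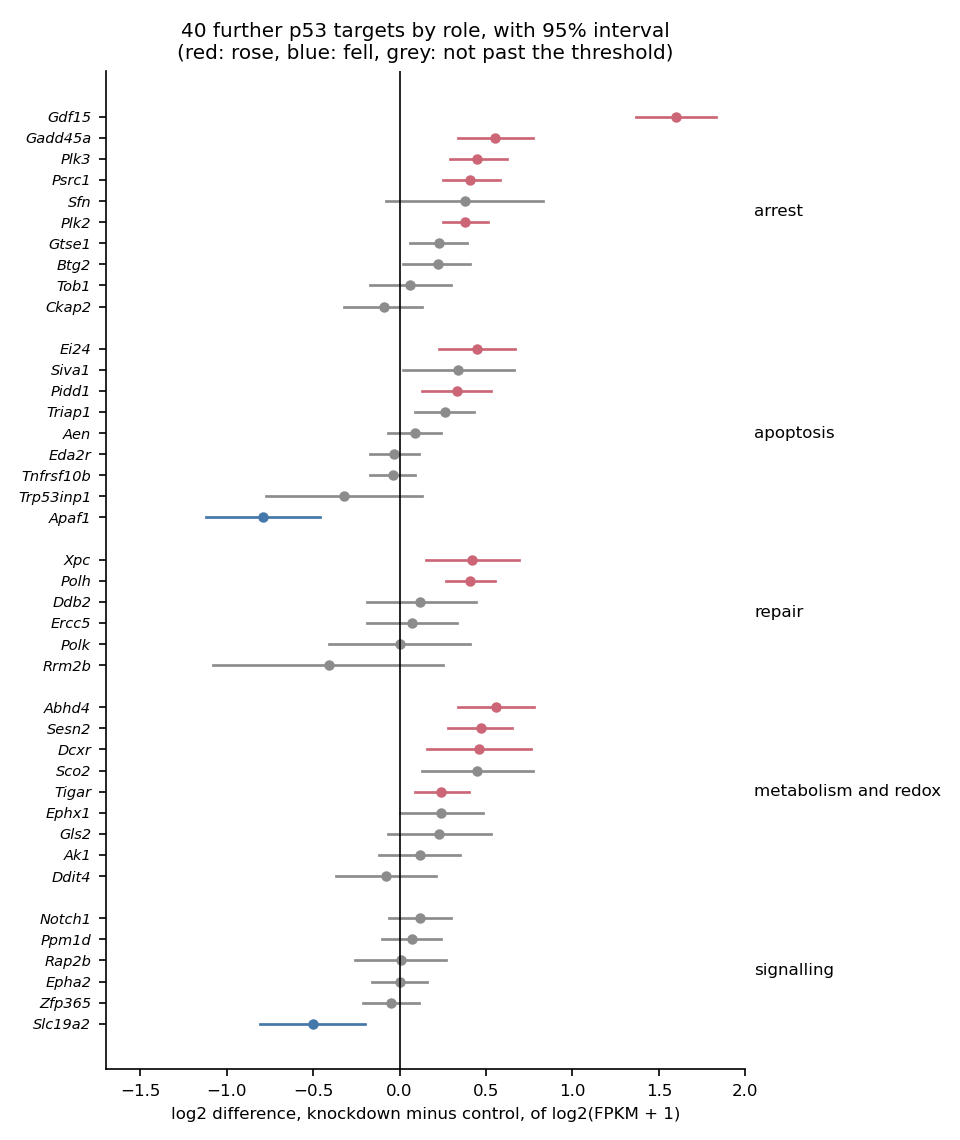
Log2 difference of knockdown minus control with its 95% interval for the 40 further p53 targets that were tested, grouped by role. Gdf15 stands apart at 1.60, most arrest genes lie above 0, and Apaf1 and Slc19a2 are the 2 that fell.

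Of the genes that control p53 none passed. Of 17 tested regulators 0 rose and 0 fell, against 12.0% and 5.89% of all genes, with a median log2 difference of -0.10. Without adjustment 1 had a limma p under 0.05 and was higher, Hipk2, a kinase gene at log2 0.37 (adjusted p = 0.0681), and 1 was lower, Prkdc, the gene of the DNA-dependent protein kinase, at log2 -0.34 (adjusted p = 0.131); over all genes 21.9% were higher and 12.8% lower at that p. Hipk2 rose without knockdown replicate 4 (adjusted p = 0.00501), and without knockdown replicate 5 Prkdc (0.0426) and the damage kinase gene Atr (0.0347) fell. Atr held 6.38, 4.81 and 5.39 FPKM in the controls and 2.31, 5.14 and 3.77 in the knockdown, with library 4 lowest.

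Among 9 tested paralogues of the members, 2 rose and 0 fell, against 12.0% and 5.89% of all genes. Sesn2, a second sestrin gene and also a target of ATF4, went from 3.15 ± 0.170 to 4.75 ± 0.275 FPKM (SD, n = 3 per group; log2 0.47, SE 0.08, limma adjusted p = 0.00993). It did not pass without control replicate 2 (adjusted p = 0.0508) or 3 (0.0634). Phlda1 went from 12.4 ± 0.371 to 15.5 ± 0.397 FPKM (log2 0.30, adjusted p = 0.0209), a call lost without control replicate 1, 2 or 3 (0.0836, 0.0986 and 0.101) or knockdown replicate 6 (0.0721) and after the GC correction (0.220). Sesn3 was at log2 -0.26 (adjusted p = 0.0581) and fell without knockdown replicate 4 (0.0444).

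Of 18 tested genes of the apoptosis machinery 2 rose, Diablo and Bid, and 2 fell, Apaf1 and Bcl2l11, against 12.0% and 5.89% of all genes, with a median log2 difference of -0.10. Apaf1 went from 11.24, 9.82 and 10.97 FPKM in the controls to 4.57, 7.11 and 5.82 in the knockdown (log2 -0.79, SE 0.14, limma adjusted p = 0.0124). The call was lost without control replicate 1 (adjusted p = 0.0657) or 3 (0.0643) or knockdown replicate 6 (0.0529). Diablo, whose product antagonises caspase inhibitors, went from 17.1 ± 1.39 to 23.8 ± 1.23 FPKM (SD, n = 3 per group; log2 0.45, adjusted p = 0.0121), and was lost without control replicate 1 (0.0579) or 3 (0.0590). Bid, a BH3-only gene, had a log2 difference of 0.45 (adjusted p = 0.0206), and was lost without control replicate 2 (0.0893) or 3 (0.0995) or knockdown replicate 6 (0.0859) and with TPM (0.0648). Bcl2l11, the gene of the BH3-only protein BIM, went from 8.26 ± 0.416 to 5.37 ± 0.697 FPKM (log2 -0.54, adjusted p = 0.0136), and was lost without control replicate 1, 2 or 3 (0.0738, 0.0518 and 0.0675).

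In the G1 phase, which p21 governs, 16 genes were tested, of which 3 rose and 5 fell, against 12.0% and 5.89% of all genes. Of 5 tested CDK inhibitor genes other than Cdkn1a 3 rose, Cdkn2b, Cdkn2d and Cdkn2c, and 0 fell. Of 11 cyclin, kinase and pocket protein genes 0 rose and 5 fell, Ccne2, Cdk6, Ccnd1, Ccnd3 and Cdk2. Cdkn2b held 10.26, 9.87 and 10.86 FPKM in the controls and 17.24, 14.60 and 14.74 in the knockdown (log2 0.54, SE 0.09, limma adjusted p = 0.00831; 0.0514 without control replicate 1). Ccne2, a cyclin E gene, held 16.61, 13.83 and 15.46 FPKM in the controls and 3.70, 5.30 and 4.90 in the knockdown (log2 -1.54, SE 0.13, adjusted p = 0.00102). Cdk6 had a log2 difference of -0.94 (adjusted p = 0.00927), which did not pass without control replicate 1 (0.0526) or 3 (0.0510). Ccne2 passed with each library left out. Without control replicate 1, 2 or 3 or knockdown replicate 6 the calls were lost for Cdkn2c (adjusted p = 0.0829, 0.0675, 0.0796 and 0.0697), Ccnd1 (0.0523, 0.0558, 0.0575 and 0.0537), Ccnd3 (0.0732, 0.0834, 0.0872 and 0.0820) and Cdk2 (0.130, 0.0551, 0.129 and 0.0800). Cdkn2d did not pass without control replicate 1 (0.0710) or 3 (0.0695). Of 24 genes of replication and mitosis that p21 is known to hold down, 1 rose, Foxm1, and 0 fell, against 12.0% and 5.89% of all genes, with a median of 0.06. Foxm1 did not pass without control replicate 1, 2 or 3 (adjusted p = 0.118, 0.137 and 0.180) or knockdown replicate 6 (0.129), nor after the GC correction (0.320). Apart from the fold of 2, Foxm1 passed in 7 of 18 alternatives. With an unadjusted limma p under 0.05, 2 genes of this list were higher and 2 lower, against 21.9% and 12.8% of all genes. Aurkb (log2 0.19) and Cdc25c (log2 -0.17) did not pass.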

How the data were processed

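Polyadenylated RNA of 6 bEnd.3 samples was sequenced on DNA nanoballs, per the labels' protocols. The authors deposited 1 table of FPKM for 15917 genes, rounded to 2 decimals, with their own log2 ratio, p-value and q-value of knockdown against control. Aligner, counting program, genome build, annotation and strandedness: not given in the sources used here, so antisense and overlapping reads cannot be told apart. Read counts were not used and the absolute depth is unknown; summed FPKM ran from 661950 to 757026 per library.

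The 10400 genes averaging 1 FPKM or more were tested on log2(FPKM + 1), a scale that understates changes of low genes, with limma 3.58.1 in R 4.3.3 (intensity trend, two-sided, Benjamini-Hochberg over all tested genes). The fit was also run on simulated data with independent noise in each gene and library. That simulation held no trend with GC content, so it cannot show how often calls in these libraries are false. All 10 members passed the filter. The members and lists were chosen with earlier results of these data known. One gene of the apoptosis list is not reported here and was left out of its counts. The named genes are the members, Npc1, list genes past the threshold, the 3 smallest p-values of each list and the 3 genes most like Zmat3; markers and untested genes are named beside their lists. GC content was that of each gene's longest protein-coding transcript in GENCODE M21, available for 98.5% of tested genes; as the deposited table names no build, coordinates belong to the RefSeq promoter windows (GRCm38.p6) alone. Alternatives were other pseudocounts, filters, scalings and moderation, sample weights (gene-by-gene estimate, as the default estimate did not converge), a fold of 2, a GC spline with 5 degrees of freedom and each library left out; the GC spline without knockdown replicate 4 was added after seeing the data.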

Additional observations from a re-analysis of the deposited data

How the results depend on the processing

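No paired analysis was possible because the groups share no replicate number. Of the 10 genes, Zmat3 kept its call in every fit except where a fold of 2 was required. The members that rose were 3 in the reported fit, 1 without a filter, 1 with median scaling, 5 with quantiles, 8 with sample weights, 0 with a fold of 2, and 1 to 6 with a library left out; 0 fell in the reported fit and in the fits with a library left out, and 1, Trp53, fell with the GC correction and without knockdown replicate 4. The further targets that rose were 23 with sample weights and 1 with a fold of 2, and 4 to 16 with a library left out; those that fell were 1 without a filter, 1 with TPM, 0 with a fold of 2, and 0 to 2 with a library left out. Over all genes 2969 rose and 2008 fell with sample weights, 47 and 54 with a fold of 2, and 310 to 1901 rose and 159 to 1083 fell with a library left out; 1209 fell with the GC correction, and 1656 without knockdown replicate 4 as well. The cause of these shifts was not tested.

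Signs changed only for members that did not pass in the reported fit. Of the differences with a changed sign, only that of Trp53 at -0.15 passed, as lower (limma adjusted p = 0.0383). That fit had the GC correction and left out knockdown replicate 4. Trp53 was at -0.0027 with median scaling, -0.01 with the trimmed mean of M values and without control replicate 1, -0.03 with quantiles, -0.04 with sample weights, -0.10 with the GC correction, -0.07 without knockdown replicate 4 and -0.15 with both. With a library left out in turn, Trp53 ranged from -0.07 to 0.09, Mdm2 from -0.04 (without knockdown replicate 5) to 0.35, and Ccng1 from -0.26 to 0.03. Ccng1 was at 0.10 with the GC correction, 0.03 without knockdown replicate 4 and 0.11 with both. Bbc3 was at -0.03 with the GC correction, and Phlda3 at -0.03 with that correction and without knockdown replicate 4. Fas, Bbc3 and Sesn1 have group means under 5 FPKM and were not tested at that filter. The depth behind the FPKM is unknown, so counting error could not be given.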
